A study of Mus musculus with 15 samples.

Results

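Quadriceps muscle was compared between adult offspring of fathers fed a high-fat diet and adult offspring of chow-fed parents. RNA of 3 mice in each group was sequenced, 6 of the 15 libraries of a study that asked whether maternal exercise in pregnancy alters what a parental high-fat diet leaves in the offspring. All mice were C57BL/6, and no allele or transgene is named. In the paternal high-fat sedentary group (labelled PHS), the sires received a 60% high-fat diet from 8 weeks of age for 6 weeks, with 4 sires per diet, and were mated with lean dams aged 14 weeks. The control group (NCS) had chow-fed parents and served both the paternal and the maternal arm of the study. In both groups the pregnant dams were housed with locked running wheels, and all offspring ate chow and were sedentary from the day after birth until the muscle was taken at 10 months. The offspring therefore never ate the high-fat diet themselves. Which sire or litter each offspring came from is not given, and mice of 1 group may share a father. The p-values therefore measure the spread between single mice, and the main fit pools it over all 15 libraries of the study.

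Quadriceps is a mostly fast-fibre muscle that burns both glucose and fat, and its fatty acid oxidation and insulin response are the usual readouts of inherited metabolic effects. A father's diet can reach his offspring only through the sperm or the seminal fluid, or through the mother's response to him, and DNA methylation, chromatin and small RNAs of the sperm are the carriers most often studied. Among the genes described here, guanylate-binding proteins and immunity-related GTPases are enzymes that interferon-gamma induces in almost any cell type, where they attack the membranes around intracellular microbes.

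The 6 libraries held 22350676 to 26981745 reads. Fast-fibre genes took 21.1 to 29.3% of them. That share is a check for fast skeletal muscle and does not tell quadriceps from another fast muscle. Transcripts of hepatocytes, which quadriceps should lack, summed to 242 CPM (counts per 1000000 reads) in control replicate 2 and 332 in paternal high-fat replicate 1, against 14.5 to 23.4 in the other 4 libraries. With libraries of the other groups, 4 of the 15 held them, and "without the libraries with hepatocyte transcripts" below means without those 4. Control replicate 2 also had the fewest detected genes, 17699 against 19194 to 20315. In each group, replicates 1 and 2 share the first part of their title code and replicate 3 has another, and no code occurs in both groups. What the codes stand for is not given, so a group and its codes cannot be told apart within these 6 libraries. Values "with the title code" below come from a fit over all 15 libraries. That fit links the groups only through libraries of high-fat fathers with exercised mates, which share codes with both, so its values depend on those libraries too.

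No gene passed the test. Of 13499 genes with a mean of at least 10 over the 15 libraries, 0 (0.0%) reached a Benjamini-Hochberg adjusted p of 0.05 in limma, and edgeR's quasi-likelihood test, DESeq2 and limma voom on the recovered reads also called 0 (0.0% each). The lowest adjusted p was 0.92 in limma, 0.905 in edgeR, 0.907 in limma voom and 0.0516, for Optn, in DESeq2. At an unadjusted p under 0.05 there were 387 genes (2.87%) in limma, 386 in edgeR, 429 in DESeq2 and 415 in voom, fewer than the 675 that 5% of the genes would be. They were split evenly, with 197 higher (1.46%) and 190 lower (1.41%) in the paternal high-fat group. Scaling by library total moved that split to 312 higher and 82 lower, with the median log2 difference of all genes going from 0.01 to 0.10. In 357 genes (2.64%) all 3 paternal high-fat values lay above all 3 control values, and in 412 (3.05%) all lay below. What follows is therefore a description of the genes and groups with the largest and least overlapping differences, none of which passed.

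**Figure D1:**
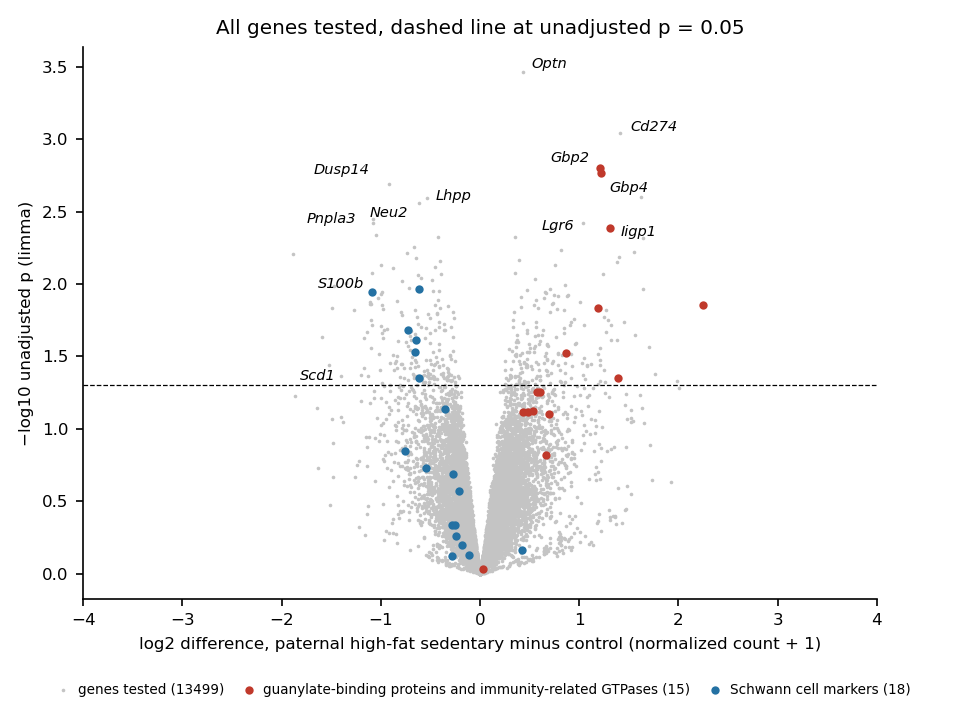
Each point is 1 of the 13499 genes, with the log2 difference of the paternal high-fat group from the control group on the x axis and minus log10 of limma's unadjusted p on the y axis. All 15 coloured interferon-inducible GTPases lie to the right of 0, and 17 of the 18 Schwann cell markers lie to the left.

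The count depended on which mice were kept. Without control replicate 3 the genes at an unadjusted p under 0.05 numbered 1389, and without paternal high-fat replicate 3 they numbered 1723. These are the 2 mice whose title codes differ from those of their group mates. Without control replicate 2 there were 159, and without paternal high-fat replicate 1 there were 179, which are the 2 libraries with hepatocyte transcripts. None of these fits called a gene at an adjusted p of 0.05.

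**Figure D2:**
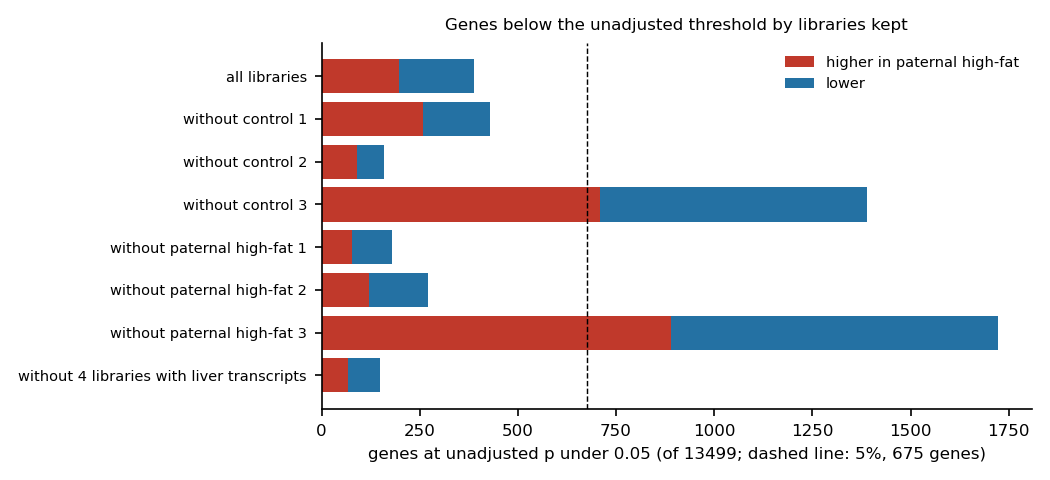
Bars give the number of genes at an unadjusted p under 0.05, on the x axis, with all libraries and with the libraries named on the y axis left out, split by direction. The dashed line marks 675 genes, 5% of those tested. Leaving out either replicate 3 carries the count past that line, to 1389 and 1723.

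Interferon-inducible GTPases had higher values in the paternal high-fat mice. All 15 measured members of the 2 families had the higher mean in the paternal high-fat group, where 51.0% of all genes did. The median log2 difference was 0.69, against 0.01 over all genes. With no filter on low values the family median was 0.67. The filter used all 15 libraries, so a member low in the controls, such as Tgtp1, could pass through the other groups. The list was chosen with earlier results of these data known, so the shares set beside all genes are a description only. In 8 members the groups did not overlap, and 7 had an unadjusted p under 0.05 (the background shares are 2.64% and 1.46%), while 0 passed the adjusted threshold. The families share sequence, and close copies such as Tgtp1 and Tgtp2 can split or share reads. Gbp4 and Gbp9, and Irgm2 and Igtp, overlap on the same strand in the annotation, so the members are not independent.

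Gbp2 (chr3:142620602-142638008, GRCm38 as all positions here), a guanylate-binding protein, had normalized counts of 63.0, 30.3 and 84.6 in the controls and 134, 139 and 112 in the paternal high-fat mice. Its log2 difference was 1.21 ± 0.32 (SE), with an unadjusted p of 0.00158 and an adjusted p of 0.92 in limma, and was 0.80 without control replicate 2 and 0.77 without the libraries with hepatocyte transcripts. Gbp4 (chr5:105115767-105139586) stood at 87.4, 99.0 and 128 in the controls and 306, 257 and 183 in the paternal high-fat mice, a difference of 1.22 ± 0.32. Iigp1, an immunity-related GTPase on chromosome 18, had 43.7, 39.4 and 80.1 against 168, 126 and 103, a log2 difference of 1.31 ± 0.39 that was 2.17 with the title code. In all of them the groups were apart, with control replicate 3 the highest control and paternal high-fat replicate 3 the lowest of its group.

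Gbp10 had 26.4, 48.5 and 40.1 normalized counts in the controls against 64.2, 73.5 and 68.9. Its log2 difference of 0.87 became -0.27 with the title code in the fit. Gbp3 had 41.7, 42.4 and 71.2 against 76.6, 76.8 and 76.8, so that control replicate 3 almost reached the other group. The same mouse set the margin for Tgtp2, whose highest control value was 19.6 and lowest paternal high-fat value 19.7. Gbp6 and Tgtp1 had large differences, 1.39 and 2.25 on the log2 scale, with overlapping groups and low counts. Tgtp1 was at 0 in control replicate 2 and at 3.05 and 12.5 in the other controls, against 31.2, 12.1 and 12.8. The smallest difference was that of Igtp, at 207, 217 and 239 in the controls and 191, 221 and 271 in the paternal high-fat mice. Its log2 difference was 0.03 ± 0.29, and it turned below 0 without control replicate 1 (-0.02) or without paternal high-fat replicate 3 (-0.10).

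Interferon-gamma acts on such genes through a gamma-activated site, TTCNNNGAA, and an interferon-stimulated response element, whose core is GAAANNGAAA (TTTCNNTTTC on the other strand). Windows of 100 bases before the RefSeq start (GRCm38.p6) were found for 10 of the 15 genes, 11 windows in all. Gbp4, Iigp1, Gbp10 and Gbp6 had none, so the motifs are not described for them. On either strand, the response element core occurred in 8 of the 11 windows and the gamma site in 6 (8 and 6 of the 10 genes). Over the 32851 windows of all promoters the shares were 0.983% and 2.55%. Occurrences of a motif, and of both motifs, may overlap each other. The windows below belong to 3 members without overlap between groups and to Irgm2 and Igtp, which had similar promoters and unlike differences. They are 5′ to 3′ on the gene's strand, with matches in capitals: Gbp2 at chr3:142620563-142620662 (plus strand), Gbp3 at chr3:142559944-142560043 (plus), Tgtp2 at chr11:49064213-49064312 (minus), Irgm2 at chr11:58214877-58214976 (plus) and Igtp at chr11:58199456-58199555 (plus).
Gbp2: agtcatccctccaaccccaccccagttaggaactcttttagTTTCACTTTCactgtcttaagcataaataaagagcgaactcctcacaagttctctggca
Gbp3: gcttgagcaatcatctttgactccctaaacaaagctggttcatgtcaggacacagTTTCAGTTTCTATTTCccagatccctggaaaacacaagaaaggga
Tgtp2: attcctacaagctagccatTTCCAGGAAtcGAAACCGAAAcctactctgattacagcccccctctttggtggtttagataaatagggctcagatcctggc
Irgm2: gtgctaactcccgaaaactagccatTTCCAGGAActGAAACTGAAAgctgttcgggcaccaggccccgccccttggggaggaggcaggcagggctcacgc
Igtp: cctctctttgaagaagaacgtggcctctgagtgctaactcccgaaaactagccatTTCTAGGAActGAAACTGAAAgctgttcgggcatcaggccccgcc
Irgm2 and Igtp hold both motifs side by side. Irgm2 had normalized counts of 297, 166 and 303 in the controls against 337, 376 and 320, without overlap and with a log2 difference of 0.48 (0.20 without control replicate 2), while Igtp with the same motifs did not separate the groups. A match of letters is a description and shows no binding.

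**Figure D3:**
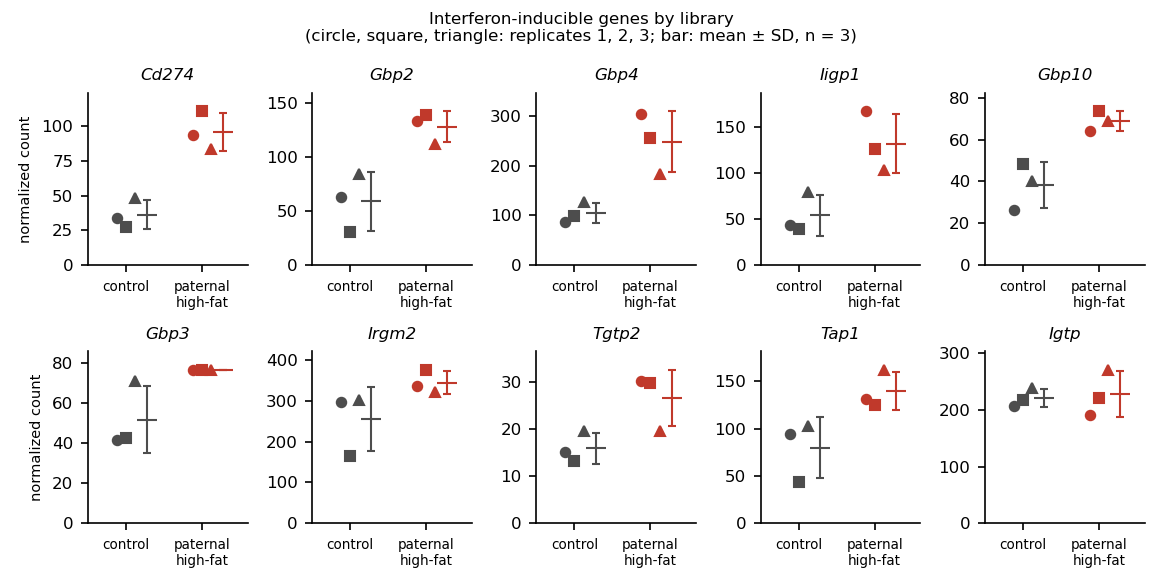
Normalized counts (y axis, from 0) of 10 interferon-inducible genes in the 3 control and 3 paternal high-fat libraries, with symbols for replicates and bars for mean ± SD (n = 3). The groups are apart for 9 of the genes, while Igtp overlaps, at 207 to 239 against 191 to 271.

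Cd274 (chr19:29367455-29388095), which encodes the immune checkpoint ligand PD-L1 and is induced by interferon-gamma, ranked among the lowest p-values of all genes. Its normalized counts were 33.5, 27.3 and 48.1 in the controls and 93.6, 111 and 83.7 in the paternal high-fat mice. The means were 36.3 ± 10.7 and 96.0 ± 13.7 (SD, n = 3), and the log2 difference was 1.41 ± 0.34 (SE), between 1.23 and 1.62 when single libraries were left out. The unadjusted p in limma was 0.000905 and the adjusted p 0.92. Every paternal high-fat mouse lay above every control.

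Other interferon genes had smaller differences. Of 18 genes of MHC class I presentation, 13 had the higher mean in the paternal high-fat group, with a median of 0.19 and 2 members without overlap (background 2.64%). The median was 0.0929 without paternal high-fat replicate 3 and 0.30 without control replicate 3. Tap1, a subunit of the peptide transporter, had 94.5, 43.4 and 102 normalized counts against 132, 125 and 162 (log2 difference 0.88 ± 0.31, and 0.49 without control replicate 2). Nlrc5, the transactivator of class I genes, differed by 0.73 ± 0.26 with overlapping groups, and B2m, the class I light chain, by 0.31. Of 12 genes of interferon-gamma signalling, Cd274 among them, 9 had the higher mean, with a median of 0.08. Without overlap, 1 member lay higher, which was Cd274, and 1 lay lower (backgrounds 2.64% and 3.05%). Irf1, an early transcription factor of the pathway, differed by 0.45.

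Genes of the type I interferon antiviral response showed no common direction. Of 24 members 15 had the higher mean, and their median of 0.08 became -0.00397 without control replicate 2 and -0.03 without paternal high-fat replicate 1. Ifih1, a cytosolic sensor of double-stranded RNA, was 0.56 higher. Ifit3b was lower in every paternal high-fat mouse, at 49.0, 54.1 and 51.2 against 99.6, 69.7 and 78.3 in the controls, with a log2 difference of -0.66 and an unadjusted p of 0.0335. With the title code in the fit it was 0.0739.

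Macrophage markers had the higher mean in 11 of 15, with a median of 0.12, and in 12 of 15 with a median of 0.25 without the libraries with hepatocyte transcripts. The median lay between -0.17 and 0.28 when single libraries were left out, and 0 members separated the groups. Their summed level was 57.4 to 87.0 CPM in the controls and 57.6 to 103 in the paternal high-fat mice. Only 4 of 24 lymphocyte and granulocyte markers were measured, of which 1 had the higher mean, and the whole list summed to 27.5 to 80.7 against 28.5 to 38.2. The part of these cells in the GTPase values was not tested. In muscle taken whole, fewer cells of a type and less RNA per cell cannot be told apart.

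The GTPase members without the 4 libraries of the series that hold hepatocyte transcripts still had the higher mean in 15 of 15, with a median of 0.49. With the title code in the fit the median was 1.10. In that fit paternal high-fat replicate 3, alone in its code, adds nothing to the estimate. In the other groups of the study, set against the same 3 controls, the median was 1.21 in offspring of high-fat sedentary mothers, 0.64 with high-fat fathers and exercised mothers and 0.46 with high-fat exercised mothers. These comparisons share their controls. Cd274 had normalized counts of 241, 127 and 74.6 in the maternal high-fat sedentary libraries, 84.0, 84.8 and 77.3 with exercised mates of high-fat fathers and 47.8, 83.8 and 74.4 with exercised high-fat mothers.

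Of the single genes outside these families, Optn (chr2:5020642-5064051), a cargo receptor of autophagy, had the lowest p of all genes. Normalized counts were 1311, 1338 and 1462 in the controls and 1897, 1966 and 1699 in the paternal high-fat mice. Every paternal high-fat value lay above every control value. The log2 difference was 0.43 ± 0.09 (SE) with an unadjusted p of 0.000345 and an adjusted p of 0.92 in limma. Fitted on the 6 libraries alone, limma gave Optn an unadjusted p of 0.0102. Lgr6, a receptor for R-spondins that potentiate Wnt signals, had 29.5, 35.4 and 48.1 against 73.1, 63.8 and 97.5, a log2 difference of 1.04 ± 0.30. Gda, which deaminates guanine, had 118, 84.8 and 124 against 201, 197 and 141, a log2 difference of 0.72 that was 0.46 without the libraries with hepatocyte transcripts. Among more abundant genes, Pde4d, a phosphodiesterase that degrades cyclic AMP, had means of 4542 ± 419 and 5812 ± 409 (SD), and Kif16b, a kinesin of early endosomes, 1254 ± 92.6 and 1607 ± 172. The transcription factor Klf7 had 128 ± 8.78 against 169 ± 3.69, and the zinc-finger genes Zfp366 and Zfp866 differed by 0.56 and 0.48 on the log2 scale. None of these groups overlapped.

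Among genes with lower values in the paternal high-fat mice, Dusp14, a dual-specificity phosphatase, had 124, 154 and 74.8 normalized counts in the controls and 51.7, 60.6 and 66.0. Its log2 difference was -0.92 ± 0.25 (SE), with an unadjusted p of 0.00204 and an adjusted p of 0.92 in limma, and was -0.60 without the libraries with hepatocyte transcripts. Lhpp, a phosphohistidine phosphatase, had 563, 589 and 493 against 357, 338 and 446. Neu2, the cytosolic sialidase, had 540, 546 and 406 against 301, 326 and 341, a log2 difference of -0.61 that was -0.34 with the title code. Each of them separated the groups by a narrow margin set by the replicates 3. Slc36a2, an amino acid transporter, was at 88.1 ± 29.7 against 46.6 ± 11.2 (SD), the cation channel Trpv4 at 87.5 ± 21.1 against 54.4 ± 1.13, and Btd, which recycles biotin, at 216 ± 22.4 against 160 ± 7.90. Ccdc9b, Arhgef10, a guanine nucleotide exchange factor, and the kinase Stk35 had log2 differences of -0.40, -0.45 and -0.39. Of the 12 highest-ranked genes in this direction the other 2 were predicted gene models.

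Genes of fat storage and lipid synthesis had some of the largest lower values. Pnpla3 (chr15:84167837-84187236), a lipid droplet protein that sterol and carbohydrate signals induce, had 253, 172 and 118 normalized counts in the controls and 78.4, 71.9 and 95.5 in the paternal high-fat mice. The means were 181 ± 67.8 and 81.9 ± 12.2 (SD, n = 3), and the log2 difference was -1.08 ± 0.31 (SE). It was -1.05 without the libraries with hepatocyte transcripts and -0.42 with the title code in the fit. Scd1, which makes monounsaturated fatty acids, had 2743, 1797 and 1501 against 776, 647 and 804, with a log2 difference of -1.40 ± 0.63, an unadjusted p of 0.043 and an adjusted p of 0.92 in limma. No paternal high-fat mouse reached the lowest control for Pnpla3 or Scd1, but the value of Scd1 became 0.37 with the title code. Scd2 had a log2 difference of -0.50. Fasn, the fatty acid synthase, had 554, 666 and 317 against 201, 267 and 481, with overlap.

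The lipid synthesis list as a whole had no common direction. Of 24 members 10 had the higher mean, with a median of -0.10, 3 members without overlap higher and 2 lower (backgrounds 2.64% and 3.05%). Insig1, which holds back the sterol-regulated transcription factors of lipid synthesis, was higher in every paternal high-fat mouse, at 228, 200 and 229 against 141, 135 and 159, a log2 difference of 0.59 that was 0.12 with the title code. Some adipocyte genes also had lower means. Adipoq (adiponectin) had 228, 298 and 127 against 73.1, 97.0 and 140, and Cfd (adipsin) 1030, 1951 and 547 against 232, 453 and 856, both with overlap. Retn (resistin) had a log2 difference of -1.53. At an unadjusted p under 0.05 in limma, 2 adipocyte markers were lower and 1 was higher (backgrounds 1.41% and 1.46%). Of 16 adipocyte markers 7 had the higher mean and the median was -0.15, which became 0.05 without control replicate 2. The list's summed level was 4904 to 5188 CPM in the controls and 5169 to 5798 in the paternal high-fat mice. Adipoq and Cfd make up little of that sum, so it does not follow them. The difference of Cfd was -1.20, and -0.27 without the libraries with hepatocyte transcripts. Adipocyte content and its part in Scd1 were not tested.

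**Figure D4:**
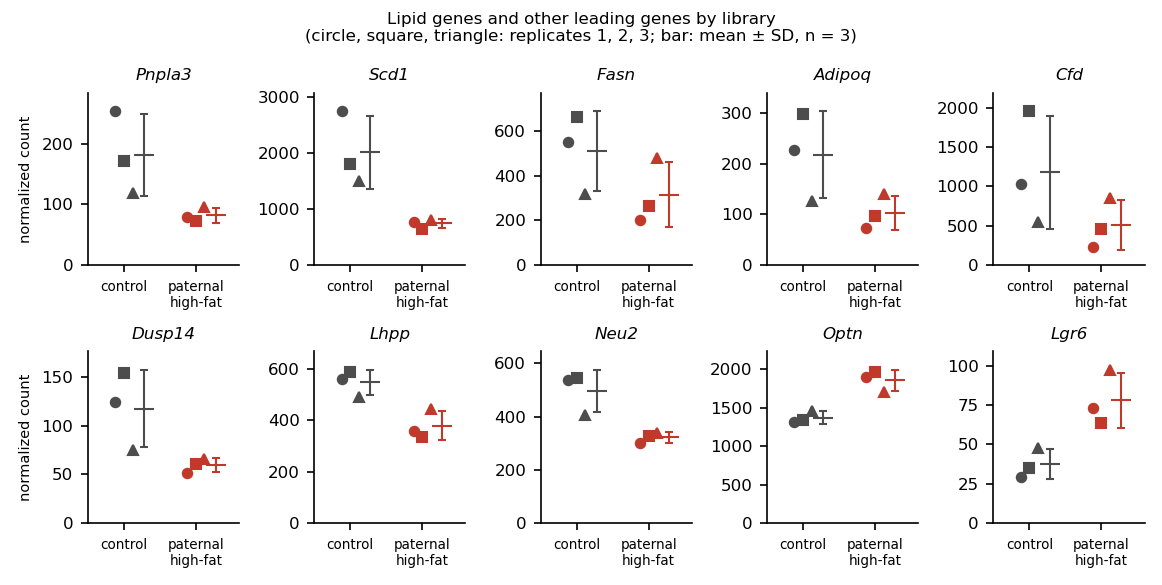
Normalized counts (y axis, from 0) of 5 lipid and adipocyte genes and 5 other leading genes in the 3 control and 3 paternal high-fat libraries, with symbols for replicates and bars for mean ± SD (n = 3). Scd1 stands at 1501 to 2743 in the controls and 647 to 804 in the paternal high-fat mice, whereas Fasn, Adipoq and Cfd overlap.

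The slow-fibre difference rested on 1 control. All 14 slow-fibre genes had the higher mean in the paternal high-fat group, with a median of 0.46, but no member separated the groups (0 of 14) and the median was -0.03 without control replicate 1. Myh7, the slow myosin heavy chain, had 8832, 30628 and 38166 normalized counts in the controls and 33449, 32614 and 24960 in the paternal high-fat mice. Control replicate 1 was the low value, and Myh7's log2 difference of 0.47 ± 0.62 became -0.18 without it and -1.21 with the title code. Of 16 fast-fibre genes 3 had the higher mean (median -0.18). That median was -0.0756 without control replicate 1, -0.0779 without paternal high-fat replicate 1, -0.0539 without the libraries with hepatocyte transcripts and -0.0232 with the title code. Among them were Myh4, the fastest heavy chain, at -0.32 ± 0.27 and the sarcomere protein Myoz1 at -0.26.

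Fatty acid uptake and oxidation genes had the higher mean in 25 of 29 members, with a median of 0.18 (24 of 29 without the libraries with hepatocyte transcripts). The median ran from 0.09 without control replicate 1 to 0.28 when single libraries were left out, and was -0.08 with the title code in the fit. Only 1 of the 29, Slc25a20, the carnitine carrier of the mitochondrial membrane, separated the groups, near the share of all genes (background 2.64%). It had 1747, 2150 and 2013 against 2499, 2337 and 2232, a log2 difference of 0.26 that was 0.0654 with the title code. Acadl, a long-chain acyl-CoA dehydrogenase, was 0.44 higher, Acsl1, which activates long-chain fatty acids, 0.42 and the cytosolic carrier Fabp3 0.56 on the log2 scale. Pdk4, which diverts muscle from glucose to fat, differed by 0.21 ± 0.22 and Ucp3 by -0.11, both of which changed sign in some alternatives, as did Acsl1 with the title code (-0.10).

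Glycolysis and glycogen genes had the higher mean in 6 of 22, with a median of -0.22, and 0 separated the groups. Gys1, the muscle glycogen synthase, and Pgk1 had differences of -0.22 and -0.21. The median was -0.0668 without the libraries with hepatocyte transcripts, -0.0714 with the title code, -0.0868 without paternal high-fat replicate 1 and -0.11 without control replicate 1. Nuclear subunits of complex I had the higher mean in 16 of 37 and of complexes II to V in 17 of 40, both with medians of -0.02. Genes of the citric acid cycle split 13 to 8, and Cs, citrate synthase, differed by -0.06.

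Regulators of metabolism differed gene by gene. Irs1, the adaptor of the insulin receptor, had 562, 665 and 504 normalized counts in the controls and 1013, 756 and 804 in the paternal high-fat mice (log2 difference 0.57, unadjusted p 0.0433 in limma). It was higher in every paternal high-fat mouse. Slc2a4, the insulin-regulated glucose transporter, had a log2 difference of -0.17 ± 0.16. The 23 insulin signalling genes split 10 to 13, with a median of -0.01. Nrip1, a corepressor of oxidative genes, was 0.56 higher, at 632, 532 and 489 against 846, 751 and 823, and 0.11 higher with the title code. Ppargc1a, the coactivator of mitochondrial biogenesis, differed by 0.11 ± 0.34, with a sign that changed in 4 of the alternatives.

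**Figure D5:**
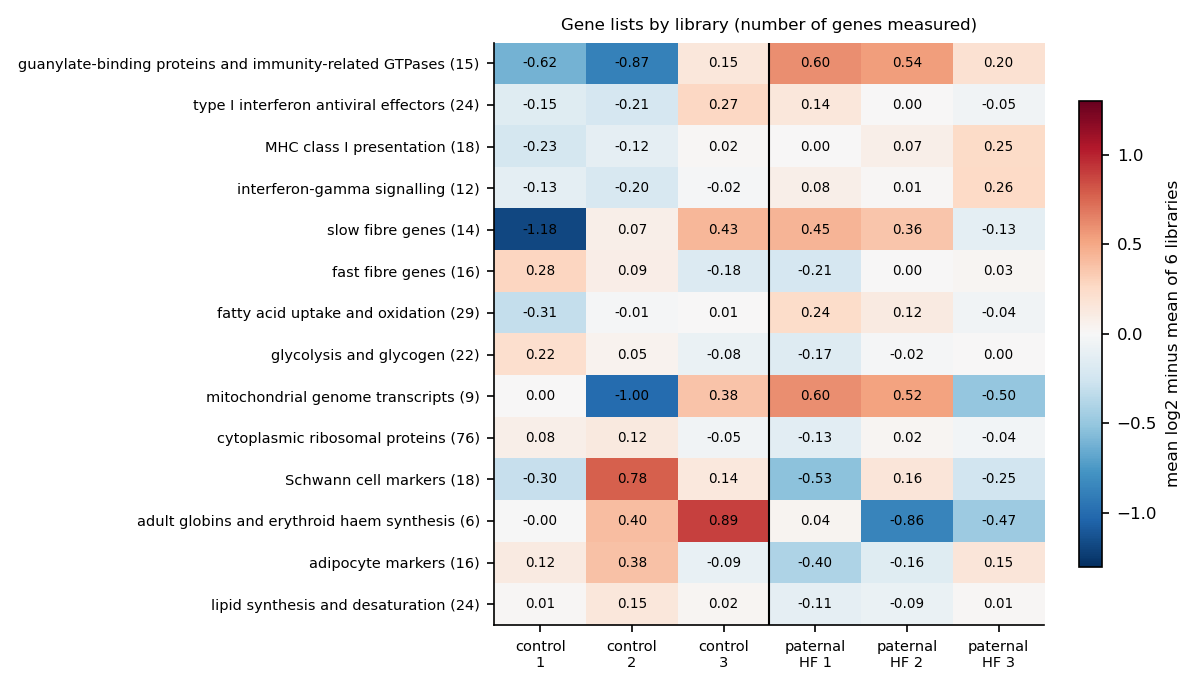
Each cell gives a list's mean log2 level in 1 library minus its mean over the 6 libraries, with lists on the y axis and the number of genes measured beside each name. The GTPases lie at -0.62, -0.87 and 0.15 in the controls and 0.60, 0.54 and 0.20 in the paternal high-fat mice, and the slow-fibre row holds -1.18 in control replicate 1.

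Markers of Schwann cells, which sheathe the motor nerve, had the lower mean in 17 of 18 members, with a median of -0.32 and 6 members at an unadjusted p under 0.05 (background 1.41%). S100b, Prx and Pmp22, a calcium-binding protein and 2 proteins of peripheral myelin, had log2 differences of -1.09, -0.72 and -0.62. No Schwann marker separated the groups, and control replicate 2 had the highest summed level. The median was -0.19 without that library alone, and lay between -0.66 and -0.19 when single libraries were left out. Without the libraries with hepatocyte transcripts, control replicate 2 and paternal high-fat replicate 1 among them, 8 of 18 had the higher mean. The median was then -0.02, with Prx at -0.09 and Pmp22 at -0.25. The 6 adult globin and haem synthesis genes had a median of -1.03 and 5 members lower at an unadjusted p under 0.05 (background 1.41%). The whole list summed to 188 to 271 CPM in the controls and 179 to 222 in the paternal high-fat mice, with overlap. That sum includes the other measured member, which differed by 0.04, so it does not follow the 5 lower members alone. Hba-a2 had 177, 327 and 354 normalized counts in the controls against 163, 94.5 and 136, without overlap, and Hbb-bt a difference of -1.10. The value of Hba-a2 was -1.09, and -0.37 with the title code. Globin copies share sequence. The median of the list stayed between -0.76 and -1.36 when single libraries were left out and was -0.25 with the title code in the fit.

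Short transcripts tended to have lower values in the paternal high-fat group. Processed pseudogenes, copies of messenger RNAs, had the higher mean in 62 of 251, with a median of -0.23, and 23 lay lower without overlap against 6 higher (backgrounds 3.05% and 2.64%). Cytoplasmic ribosomal protein genes had the higher mean in 14 of 76, with a median of -0.13. Of these genes 4 lay lower without overlap (background 3.05%), among them Rpsa, a small-subunit protein, at -0.21. Among 5 equal classes of exon length, the median log2 difference went from -0.06 in the shortest to 0.08 in the longest. Without the libraries with hepatocyte transcripts 115 of the 251 pseudogenes had the higher mean, and the medians were -0.03 for pseudogenes and -0.03 for ribosomal protein genes, and between -0.02 and 0.00 for the length classes. Transcripts of the mitochondrial genome had the higher mean in 9 of 9, with a median of 0.35, but their summed level was 12973 to 38399 CPM in the controls and 18484 to 43851 in the paternal high-fat mice, and the median was -0.20 without those libraries.

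Lists that bear on parental inheritance had no common direction. Of 28 imprinted genes 16 had the higher mean (median 0.06) and 2 lay lower without overlap (background 3.05%). Peg10, expressed from the paternal allele, had 56.9, 45.5 and 57.0 normalized counts in the controls and 35.6, 37.2 and 39.4 in the paternal high-fat mice, a log2 difference of -0.49 with an unadjusted p of 0.124 that became 0.31 with the title code in the fit. Gnas and Impact both had 0.39. Of 19 DNA methylation and chromatin genes 9 had the higher mean, with Dnmt3b, a de novo methyltransferase, at -0.33 ± 0.40 and the histone demethylase Kdm6b at -0.38. At the neuromuscular junction, Chrnd, the delta subunit of the acetylcholine receptor, was higher in every paternal high-fat mouse (101, 119 and 92.5 against 66.0, 60.6 and 88.1, log2 difference 0.54, and 0.34 with the title code), and Rapsn, which clusters that receptor, had a difference of -0.39. Gpx3, a secreted glutathione peroxidase, and Tk1, the thymidine kinase of dividing cells, had differences of -0.40 and -0.56.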

How the data were processed

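Quadriceps RNA was ribo-depleted, made into stranded libraries and sequenced with 100 bp single-end reads, per the labels' protocols. The submitters' processing notes name STAR 2.5.2b, featureCounts 1.5.2, DESeq2 1.11.8 and build mm10. The deposited signal per gene is a read count that the authors divided by a size factor per library, as deduced from the values, which were whole multiples of 1 step (tolerance 0.001, 100% of values). Recovered totals were 18457663 to 26981745 reads over 15 libraries. Of 50686 genes, 99.6% matched GENCODE M21.

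The main test was limma (version 3.58.1, R 4.3.3) on log2 of the normalized count plus 1, fitted over all 15 libraries. Fitted on the 6 libraries alone, limma gave 265 genes at an unadjusted p under 0.05. The 13499 genes tested averaged at least 10 (the lowest mean kept was 10.0026 and the highest left out 9.98699). Another 37187 were not tested, and the scale understates changes of low genes. Adjusted p-values are Benjamini-Hochberg. edgeR 4.0.16, DESeq2 1.42.0 and limma voom were run on recovered reads. Only the main limma fit was also run on simulated counts. That simulation gave every gene the same dispersion (relative spread between mice) and no library differences from title codes or hepatocyte transcripts. It was therefore simpler than these data. No library was a copy of another (chi-square over its degrees of freedom 24.3 to 88.1 between group mates).

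The 42 gene lists and the comparison were chosen with earlier results of these data known. The rule named the 12 highest-ranked genes per direction with a mean of at least 50 and no overlap, up to 3 genes per list, and 9 fixed genes of muscle metabolism and methylation. The other GTPase family members, Fasn and Fabp3 were named after their values were seen. A gene that the rule named is not reported here. Alternatives changed the pseudocount, filter, scaling and tool, left out libraries, or added a liver score or the title code.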

Additional observations from a re-analysis of the deposited data

How the results depend on the processing

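Of 23 alternatives none called a gene at an adjusted p of 0.05, edgeR, DESeq2 and limma voom included. The count of genes at an unadjusted p under 0.05, 387 in the main fit, was 614 with a mean of at least 1, 1010 with no filter, 246 with a mean of at least 50, 1791 with array quality weights, 148 without the 4 libraries with liver transcripts and 177 without the 2 libraries with few detected genes. Leaving out 1 library at a time gave 159 to 1723. Of 78 named genes 67 kept their sign under every alternative run, and 18 of 1785 values reversed. Of 345 list values 14 reversed and 14 moved by more than the spread.

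With a term for the title code the reversed values were -0.48 for the slow fibre median, -0.0787 for fatty acid oxidation, 0.11 for lipid synthesis, -0.27 for Gbp10, 0.0739 for Ifit3b, 0.37 for Scd1, -1.21 for Myh7, -0.10 for Acsl1, -0.0986 for Pdk4, 0.13 for Ucp3, -0.13 for Ppargc1a and 0.31 for Peg10. Scaling by library total gave 0.000776 for the lipid synthesis median and a log2 Cs difference of 0.0361. Without the 4 libraries with liver transcripts the values were -0.20 for the mitochondrial genome median, 0.0103 for lipid synthesis and -0.15 for Pdk4. Without the 2 libraries with few detected genes, and without control replicate 2 alone, the medians were -0.00397 for type I interferon genes, -0.0434 for the mitochondrial genome and 0.0480 for adipocyte markers. When single libraries were left out, the medians ran from -0.0313 to 0.21 for type I interferon genes, -0.0333 to 0.82 for slow fibre genes, -0.0434 to 0.69 for the mitochondrial genome and -0.28 to 0.0480 for adipocyte markers. The single genes that reversed ran from -0.10 to 0.15 for Igtp, -0.18 to 0.87 for Myh7, -0.27 to 0.0152 for Ucp3 and -0.18 to 0.43 for Ppargc1a. The cause was not tested.

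No paired analysis was possible, because the labels give no replicate numbers and pair no mice across groups. A replicate block was therefore not run. The replicate numbers used here only give the order of the libraries within each group. The 6 libraries held 22350676 to 26981745 reads, and the spread between 3 mice per group sets the limit of the tests.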
